A study of Mus musculus with 8 samples.

Results

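The 7 genes described here are regulators and surface markers of B-1 cells: the transcription factor genes Zbtb32, Bhlhe41 and Bhlhe40, and the surface protein genes Cd5, Spn, Nt5e and Ctla4. They were chosen by name, out of 19937 genes with a probe set annotated to 1 symbol alone, and each of the 7 had 1 such probe set. Total RNA came from spleen B cells of adult mice sorted for both CD22 and B220, with 4 Control (wild-type littermate) and 4 Sca1-HGAL arrays of the Affymetrix Mouse Gene 1.0 ST type. Both groups share the CBAxC57BL/6J background, and the labels give no age in weeks, sex, litter or treatment. The Sca1-HGAL mice carry human HGAL, which encodes a signalling adaptor first known from the germinal centre, under the Sca1 promoter. That promoter is active in blood stem and progenitor cells, so it is not a B-cell promoter alone. The labels call the genotype knock-in in one place and transgenic in another, and do not say how many founder lines were used or whether each array was a separate mouse. The p-values therefore measure the spread between these samples, and the 4 arrays in each group limit the precision.

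B-1 cells are an innate-like B lineage that renews itself, makes natural IgM and lives mainly in the body cavities, with a small population in the spleen. The B-1a subset carries CD5, a brake on receptor signalling, together with CD43, the product of Spn, which resting conventional B cells lack. Bhlhe41, with its close relative Bhlhe40, is a helix-loop-helix repressor needed for B-1a cells to form and persist, and B-1 cells are also known for high Zbtb32, CD73 (Nt5e) and CTLA4. The study's title ties HGAL to receptor signalling through the kinase Syk, and strong receptor signals favour B-1a formation. A spleen B-cell sample is a mixture of B-cell subsets and some other cells. More B-1 cells, more of other cells that carry these genes, and more RNA of a gene per cell cannot be told apart in these values.

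The 8 arrays had closely similar medians, between 145.2 and 151.4 in deposited intensity. Levels are given as log2 intensity, and differences as log2 folds, Sca1-HGAL minus Control, with a standard error (SE) from limma. The sorted-cell label was borne out by the B-cell genes: Cd79a, a receptor subunit, was at 13.40 ± 0.07 (SD, n = 4) in Control and 13.29 ± 0.03 (SD, n = 4) in Sca1-HGAL arrays, and Cd79b, its partner, at 13.78 and 13.74. Neither difference passed the test, and that of Cd79b (-0.04) turned to 0.016 after a second quantile normalisation. Cd79a was lower on every Sca1-HGAL array than on any Control array, as were 2.30% of all probe sets. The genes of the sorting markers were at like levels in both groups, Cd22 at 12.66 and 12.70 and Ptprc at 12.77 in each. Human HGAL itself was not measured. Control replicates 2 and 4 carried high Xist (12.17 and 12.18, against 5.28 to 5.65 elsewhere) and low Eif2s3y (4.22 and 3.96, against 10.21 to 10.61), so sex-linked expression was uneven between the groups. Folds without these 2 arrays are given below.

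Zbtb32, Nt5e and Ctla4 were higher on every Sca1-HGAL array than on any Control array, with folds of 2.22, 1.75 and 2.20 between the group means. For Nt5e this separation was lost when each array was centred on its median. Bhlhe41 and Spn had folds of 2.11 and 1.45, with Sca1-HGAL replicate 3 inside the Control range. Cd5 and Bhlhe40 had group means closer than the spread between arrays. No gene of the 7 passed limma at a Benjamini-Hochberg adjusted p under 0.05, where 1 of 21640 probe sets did (0.00462%).

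**Figure D1:**
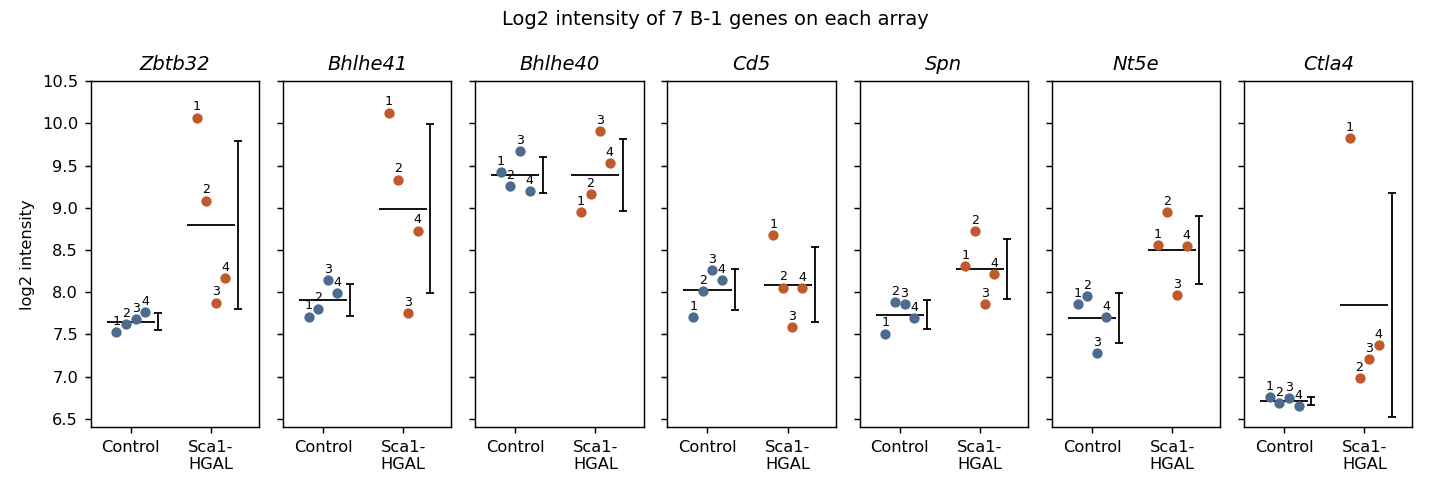
Log2 intensity of each of the 7 genes on the 8 arrays. Numbers are replicates within a group, horizontal lines are group means and the bars beside them 1 SD (n = 4); Sca1-HGAL replicate 1 is highest for Zbtb32 (10.07), Bhlhe41 (10.13) and Ctla4 (9.83), and replicate 3 stays near the Control arrays for most genes.

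Zbtb32 encodes a zinc-finger repressor of the BTB family that restrains B-cell proliferation and recall responses. It was at 7.52, 7.62, 7.68 and 7.77 on Control replicates 1 to 4 and at 10.07, 9.08, 7.88 and 8.16 on Sca1-HGAL replicates 1 to 4. All 4 Sca1-HGAL arrays lay above the Control arrays, replicate 1 far above and replicate 3 closest to them. In deposited intensity the Control arrays read 184 to 218 and the Sca1-HGAL arrays 235 to 1073. The log2 fold was 1.15 (SE 0.39, limma unadjusted p = 0.0146, adjusted p = 0.386), and the exact two-sided permutation p was 0.0286, the smallest that the 70 assignments of 8 arrays allow. Without Sca1-HGAL replicate 1 the log2 fold was 0.73, and without the 2 arrays with high Xist it was 1.20 (limma unadjusted p = 0.0557).

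Bhlhe41 followed a like order of arrays. It read 7.71, 7.81, 8.14 and 7.99 on Control replicates 1 to 4 and 10.13, 9.33, 7.76 and 8.73 on Sca1-HGAL replicates 1 to 4. Sca1-HGAL replicates 1, 2 and 4 were above every Control array, and replicate 3 lay within the Control range. The log2 fold was 1.08 (SE 0.40, limma unadjusted p = 0.0223, adjusted p = 0.426; exact permutation p = 0.114). It was 0.70 without Sca1-HGAL replicate 1, 1.49 without replicate 3 and 1.06 without the 2 arrays with high Xist (limma unadjusted p = 0.0883 for the last).

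Bhlhe40, the paralogue of Bhlhe41 and a clock and cytokine regulator in lymphocytes, had nearly equal group means (chromosome 6). Control replicates 1 to 4 were at 9.43, 9.26, 9.67 and 9.20, and Sca1-HGAL replicates 1 to 4 at 8.95, 9.16, 9.91 and 9.53. The order among the Sca1-HGAL arrays was the reverse of that for Bhlhe41 at both ends: replicate 1 was lowest and replicate 3 highest. The log2 fold was -0.002 (adjusted p = 1 by limma, SE 0.19), with a 95% interval from -0.43 to 0.42, and its sign turned under several alternative settings. The difference between the Bhlhe41 and Bhlhe40 folds was 1.08 on the log2 scale, a comparison chosen after the values were seen (exact two-sided permutation p = 0.229).

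RefSeq promoter windows (GRCm38.p6, 250 bases before to 50 after a start site) were available for 6 of the 7 genes, 7 windows in all. The windows of the 4 genes with the largest log2 folds are shown. For Zbtb32, which has 2 windows, the upstream one is shown. Capitals mark every match to the E-box letters CANNTG, the class of site that helix-loop-helix factors read. This motif and the full E-box CACGTG, known as the preferred site of BHLHE40 and BHLHE41, read the same on both strands.
Bhlhe41 promoter, chr6:145865371-145865670, minus strand: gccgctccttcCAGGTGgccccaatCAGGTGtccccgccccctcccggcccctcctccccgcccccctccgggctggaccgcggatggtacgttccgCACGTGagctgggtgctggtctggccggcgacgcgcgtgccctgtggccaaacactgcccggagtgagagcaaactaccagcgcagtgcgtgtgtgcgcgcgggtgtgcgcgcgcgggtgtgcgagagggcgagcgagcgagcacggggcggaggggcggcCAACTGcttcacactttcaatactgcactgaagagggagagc
Zbtb32 promoter, chr7:30598860-30599159, minus strand: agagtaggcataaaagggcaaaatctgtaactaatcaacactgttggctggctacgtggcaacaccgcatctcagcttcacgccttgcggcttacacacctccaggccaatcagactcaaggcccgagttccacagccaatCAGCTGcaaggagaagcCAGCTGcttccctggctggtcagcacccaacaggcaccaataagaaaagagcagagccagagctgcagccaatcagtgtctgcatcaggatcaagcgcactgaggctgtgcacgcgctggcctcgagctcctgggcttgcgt
Nt5e promoter, chr9:88327359-88327658, plus strand: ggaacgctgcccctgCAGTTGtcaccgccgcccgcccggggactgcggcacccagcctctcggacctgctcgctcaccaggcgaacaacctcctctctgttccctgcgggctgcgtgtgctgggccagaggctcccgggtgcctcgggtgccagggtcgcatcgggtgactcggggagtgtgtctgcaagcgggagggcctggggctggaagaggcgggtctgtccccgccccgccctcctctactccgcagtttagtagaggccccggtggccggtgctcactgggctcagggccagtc
Ctla4 promoter, chr1:60908775-60909074, plus strand: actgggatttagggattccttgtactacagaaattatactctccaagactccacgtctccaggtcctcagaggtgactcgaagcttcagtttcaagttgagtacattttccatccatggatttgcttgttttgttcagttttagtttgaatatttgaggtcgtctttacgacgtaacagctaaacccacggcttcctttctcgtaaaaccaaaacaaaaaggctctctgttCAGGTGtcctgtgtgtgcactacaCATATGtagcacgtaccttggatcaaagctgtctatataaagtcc

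The full CACGTG stood in 1 of the 7 windows, that of Bhlhe41, beginning 153 bases upstream of the start site. Among all 32851 windows of this length, 7.15% held CACGTG. The looser CANNTG was in all 7 windows and in 72.3% of all windows, so most windows of this length hold it. The Bhlhe41 and Nt5e windows were rich in G and C (70.7% and 71.0%) with 32 and 23 CpG pairs. The Ctla4 window had 42.0% G and C, 8 CpG pairs and a TATAAA match. That match stood near the end of the window, downstream of the start site. The motif TATAAA, searched on both strands, was in 13.6% of all windows. The shown Zbtb32 window held 4 matches to CCAAT, searched on both strands, a motif found in 37.4% of all windows. These matches describe the letters in the windows and say nothing of binding.

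Cd5, the scavenger-receptor family protein that defines B-1a cells and is also carried by T cells (gene on chromosome 19), did not separate the groups. It was at 7.70, 8.02, 8.26 and 8.14 on Control replicates 1 to 4 and at 8.67, 8.05, 7.59 and 8.05 on Sca1-HGAL replicates 1 to 4. Replicate 1 was the highest and replicate 3 the lowest of the 8 arrays, and the other Sca1-HGAL arrays lay inside the Control range. The log2 fold was 0.06 (adjusted p = 0.957 by limma, SE 0.20), with a 95% interval from -0.39 to 0.51, and it turned to -0.13 without Sca1-HGAL replicate 1.

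Spn (chromosome 7) encodes CD43, the sialomucin of B-1 cells, T cells, plasma cells and many other leukocytes. Control replicates 1 to 4 read 7.51, 7.88, 7.86 and 7.69, and Sca1-HGAL replicates 1 to 4 read 8.31, 8.72, 7.86 and 8.22. Sca1-HGAL replicates 1, 2 and 4 were above all Control arrays, and replicate 3 was inside the Control range. The log2 fold was 0.54 (SE 0.16, limma unadjusted p = 0.00716, adjusted p = 0.325; exact permutation p = 0.0857). It ranged from 0.39 to 0.68 when each array was left out in turn.

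Nt5e encodes CD73, the membrane enzyme that turns extracellular AMP into adenosine, and had the smallest p of the 7 genes. It was at 7.86, 7.95, 7.28 and 7.71 on Control replicates 1 to 4 and at 8.56, 8.94, 7.97 and 8.55 on Sca1-HGAL replicates 1 to 4. Every Sca1-HGAL array was above every Control array, with replicate 3 barely above Control replicate 2. After each array was centred on its median, the groups overlapped for Nt5e. The log2 fold was 0.81 (SE 0.20, limma unadjusted p = 0.0024, adjusted p = 0.235; exact permutation p = 0.0286). It was 0.79 without Sca1-HGAL replicate 1 and 0.94 without the 2 arrays with high Xist.

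Ctla4 encodes the inhibitory receptor that competes with CD28 for CD80 and CD86, found on activated and regulatory T cells and on B-1a cells. It was tightly grouped in Control arrays, at 6.76, 6.69, 6.75 and 6.65 for replicates 1 to 4. Sca1-HGAL replicates 1 to 4 were at 9.83, 6.98, 7.21 and 7.38. All 4 were above the Control arrays, but replicate 1 stood far above the other Sca1-HGAL arrays. The log2 fold of 1.14 (SE 0.52, limma unadjusted p = 0.0524, adjusted p = 0.525; exact permutation p = 0.0286) was 0.48 without that array, with an unadjusted p = 0.000479 and an adjusted p = 0.159.

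Counted together, 4 of the 7 genes (Zbtb32, Bhlhe41, Spn and Nt5e) had an unadjusted limma p under 0.05, all 4 higher in Sca1-HGAL arrays. Over all probe sets 9.59% reached that p, 5.53% on the higher and 4.06% on the lower side. Groups did not overlap for 3 of the 7, all higher, against 3.15% of all probe sets. A further 2.30% were lower on every Sca1-HGAL array, 5.45% in either direction. The genes were picked with earlier results of these data known, so these counts are a description. Without the 2 arrays with high Xist, 2 of the 7 (Spn and Nt5e) had an unadjusted p under 0.05, against 4.93% of all probe sets on the higher side. Leaving out arrays cannot make separate groups overlap, and without these 2 arrays 11.1% of all probe sets were above every remaining Control array. With each array centred on its median, 2 of the 7 (Zbtb32 and Ctla4) had groups that did not overlap, against 2.46% of all probe sets. Without Sca1-HGAL replicate 3, 5 genes had groups that did not overlap, against 6.23% of all probe sets on the higher side.

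**Figure D2:**
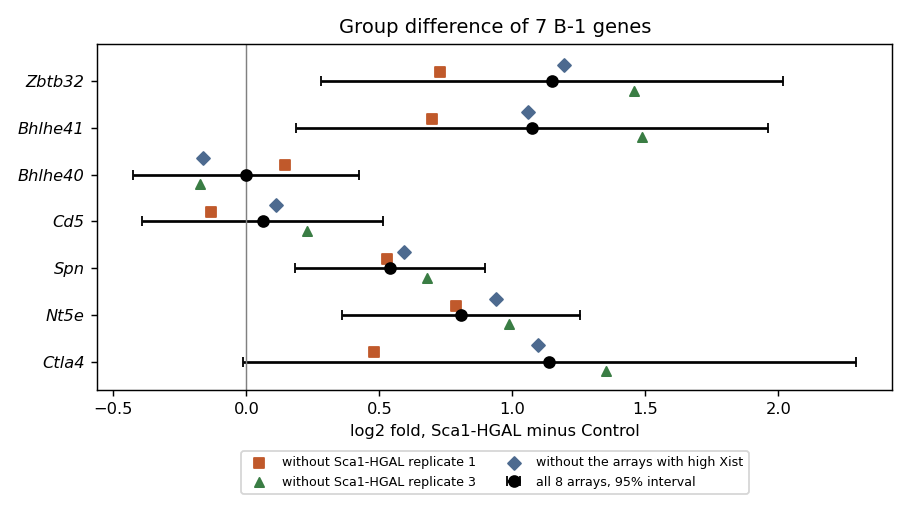
Log2 fold, Sca1-HGAL minus Control, of each of the 7 genes, with the 95% interval of the limma fit on 8 arrays (circles) and the folds after leaving out Sca1-HGAL replicate 1 (squares), replicate 3 (triangles) or the 2 Control arrays with high Xist (diamonds). The fold of Ctla4 moves from 1.14 to 0.48 without replicate 1, while Nt5e stays between 0.79 and 0.99 in these settings.

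The other genes tied to the B-1 programme were taken from a list of 23, all measured, with the 7 genes left out. None passed the adjusted threshold, 20 had a positive log2 fold and 10 had an unadjusted p under 0.05, all 10 higher. Over all probe sets 5.53% were higher at that p. Without the 2 arrays with high Xist, 7 genes of the list were higher at that p, against 4.93% of all probe sets. The list was chosen with earlier results of these data known, so its values are a description. The median log2 fold was 0.57, against 0.02 over all genes tested, of which 56.4% were positive. Zbtb20, a transcription factor of B-1 and plasma cells, had a log2 fold of 0.95 (adjusted p = 0.138 by limma, SE 0.19), Ahnak, a large scaffold protein, 0.70 (SE 0.14, adjusted p = 0.144) and Cd300lf, an inhibitory receptor, 0.89 (SE 0.23, adjusted p = 0.249). Itgam, the CD11b chain of B-1 cells in the body cavities and of myeloid cells, had 0.99 and read 6.15 to 6.65 on Control and 6.68 to 8.01 on Sca1-HGAL arrays. The fetal B-1 regulators had small folds: Arid3a had a log2 fold of 0.10 and Lin28b 0.002, the latter at 5.51 in both groups.

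Array by array, replicate 1 stood highest and replicate 3 lowest for most of the list. For 20 of the 23 genes replicate 1 was the highest Sca1-HGAL array, and for 13 replicate 3 was the lowest. Over all 19937 genes these counts were 4702 and 4638. The order was not particular to this list: the counts were 12 and 13 of 14 T-cell markers and 8 and 8 of 10 neutrophil markers. Sca1-HGAL replicate 1 exceeded every Control array for 22 of the 23 genes, replicate 2 for 12, replicate 3 for 7 and replicate 4 for 13. Over all 19937 genes the shares were 22.9%, 29.7%, 27.3% and 25.4%. For the 7 genes themselves the counts were 6, 5, 4 and 5. Without replicate 1 the list's median was 0.22, with 16 positive folds, 8 genes higher and 2 lower at an unadjusted p under 0.05. Over all probe sets 7.06% were higher at that p without replicate 1. Some of the list was high on that array alone: Il10, an anti-inflammatory cytokine of B-1 cells, was at 8.08 there and at 5.54 to 5.80 on the other Sca1-HGAL arrays, and Il5ra, a receptor for a B-1 growth cytokine, at 11.24 against 8.91 to 9.52. Both were chosen after their values were seen.

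**Figure D3:**
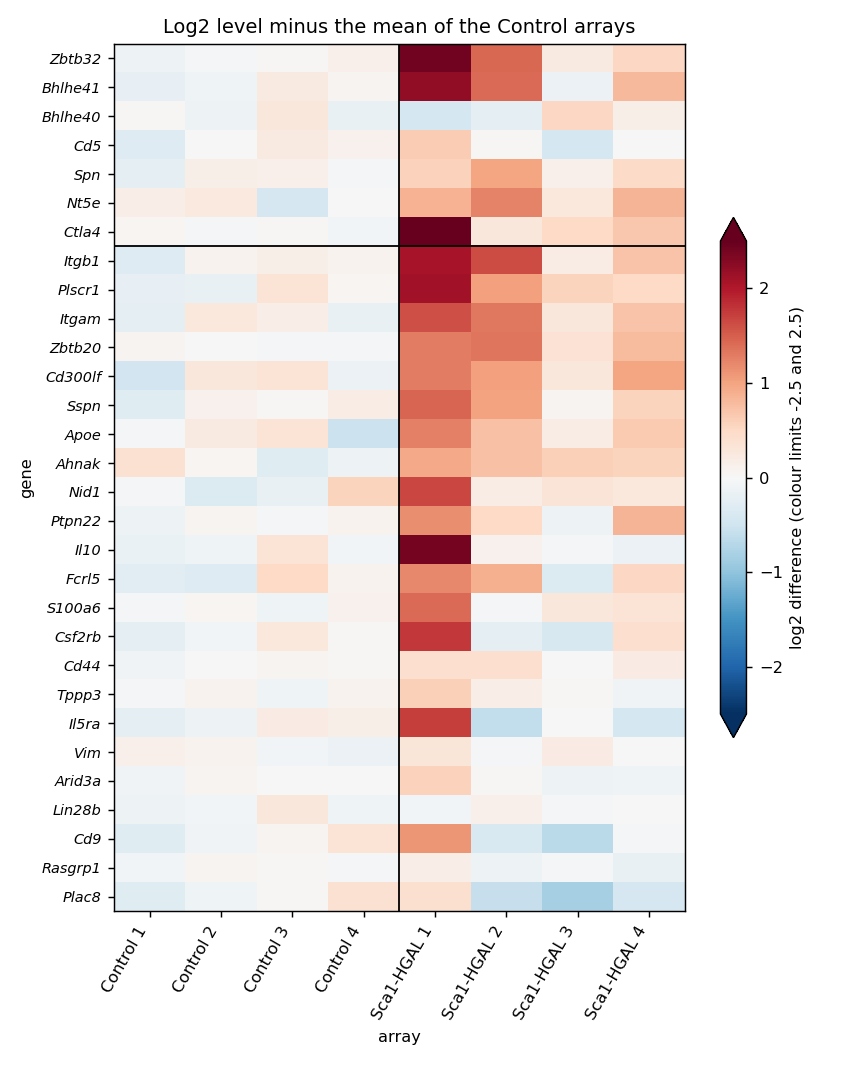
Log2 level of each gene on each array minus the mean of the 4 Control arrays, for the 7 genes (above the line) and the 23 other B-1 programme genes (below it, ordered by group difference). Values past the ends of the colour scale are drawn in its end colours. The column of Sca1-HGAL replicate 1 is the reddest, with 22 of the 23 list genes above every Control array, and that of replicate 3 has 7.

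The genes closest in pattern to the members were found by the root mean square distance between centred log2 levels over the 8 arrays, among 14841 named genes at a mean of at least 6. Zbtb32 and Bhlhe41 had each other among their nearest 3, at a distance of 0.201. Their other neighbours were shared: the integrin chain gene Itgb1 (0.189 from Zbtb32, 0.175 from Bhlhe41) and Fah, an enzyme of tyrosine breakdown (0.227 and 0.147). Nt5e was nearest to Nova1, an RNA-binding protein gene (0.130), Nrp2, a semaphorin receptor gene (0.147), and Sh2d1b1, a signalling adaptor gene (0.170). Ctla4 was nearest to Asph (0.225), Fabp7 (0.268) and Adm (0.275), which also had their highest value on Sca1-HGAL replicate 1, at 9.75, 9.96 and 9.91.

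The partners of CTLA4 gave mixed values. Cd80, one of its ligands, was at 8.01, 7.84, 8.29 and 8.15 on Control replicates 1 to 4 and at 10.15, 9.84, 8.57 and 9.55 on Sca1-HGAL replicates 1 to 4, with no overlap between groups. Its log2 fold was 1.46 (adjusted p = 0.13 by limma, SE 0.28), and that of its second probe set 1.31. The other ligand gene, Cd86, had a log2 fold of 0.08, and Cd28, the activating counterpart, -0.08. The ligand gene Pdcd1lg2 had 0.54 and the receptor gene Pdcd1 0.21. Of the 9 genes in this list, none passed the adjusted threshold and 3, all higher, had an unadjusted limma p under 0.05. The share of all probe sets higher at that p was 5.53%.

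Around Nt5e, 7 genes from a list on extracellular adenosine handling were analysed. Entpd1, which encodes CD39 and makes the AMP that CD73 uses, was at 9.48 to 9.67 on Control arrays and at 10.40, 10.01, 9.57 and 9.85 on Sca1-HGAL replicates 1 to 4. Replicates 1, 2 and 4 were above all Control arrays, and the log2 fold was 0.40 (adjusted p = 0.424 by limma, SE 0.15). It was 0.25 without Sca1-HGAL replicate 1. Alpl, a phosphatase that can also release adenosine, had -0.53, and Dpp4, another gene of the list, -0.33. At an unadjusted limma p under 0.05, 1 gene was higher and 2 were lower, none of them past the adjusted threshold. The shares of all probe sets at that p were 5.53% higher and 4.06% lower. Without the 2 arrays with high Xist none of the 7 genes had an unadjusted p under 0.05, and the fold of Dpp4 was -0.17.

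Clock genes, on which BHLHE40 and BHLHE41 act as repressors in many tissues, had small folds. Of 11 analysed, none passed the adjusted threshold. At an unadjusted limma p under 0.05 were Per3 (log2 fold 0.26) and Arntl (-0.16), against 9.59% of all probe sets in either direction. That count ranged from 0 to 4 when each array was left out. Without the 2 arrays with high Xist, the unadjusted limma p of Arntl was 0.184. Per1 had -0.37, with Sca1-HGAL replicates 1 to 4 at 9.64, 9.89, 10.45 and 10.14, and its fold was -0.24 without Sca1-HGAL replicate 1. On Sca1-HGAL replicate 3, 7 of the 11 genes exceeded every Control array, against 27.3% of all genes, and Bhlhe40 did so too. On replicate 1, 1 of the 11 did so, against 22.9% of all genes. A link between Bhlhe40 and the clock genes was not tested.

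Among plasma cell regulators 9 were analysed and none passed. Prdm1, which encodes Blimp-1, had a log2 fold of -0.05, which averages moves in opposite directions. It was at 7.54 to 7.95 on Control arrays and at 8.84, 7.33, 7.03 and 7.46 on Sca1-HGAL replicates 1 to 4. Replicate 1 was thus above every Control array and replicates 2, 3 and 4 below every one. Bach2, a repressor of plasma cell fate, had a log2 fold of -0.18. Without 1 Sca1-HGAL array the fold of Bach2 ranged from -0.27 (replicate 3) to -0.09 (replicate 1). Sdc1, the plasma cell marker CD138, had -0.43 (adjusted p = 0.217 by limma, SE 0.10), and Ciita, the regulator of MHC class II genes, 0.14. The linkers and sialomucins related to CD43 gave small folds, 6 genes with a median log2 fold of 0.04, Selplg at 0.13, Msn at 0.04 and Cd34 at 0.16. Of 15 genes that set receptor signal strength for B-1 formation, 1 had an unadjusted limma p under 0.05, against 9.59% of all probe sets. This was Fcgr2b, the inhibitory Fc receptor, at 11.18 to 11.36 on Control and 11.54 to 11.77 on Sca1-HGAL arrays, with a log2 fold of 0.42 (adjusted p = 0.119 by limma, SE 0.07). Cd72 had -0.19 (-0.11 without Control replicate 3) and Siglecg, a brake on B-1 cell numbers, -0.09.

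Levels of other cell types moved with some of these values. Cd5, Spn, Nt5e and Ctla4 are also T-cell genes. All 14 analysed T-cell markers were above log2 6 in both groups, and no value in the table was 0. Their summed intensity ranged from 5898 to 6433 on Control arrays and from 5085 to 7743 on Sca1-HGAL arrays, highest on replicate 1 and lowest on replicate 3. The largest part of each sum was Cd2, at 11.65 to 11.80 on Control and 11.45 to 11.79 on Sca1-HGAL arrays. Because B cells also express Cd2, the sum shows differences in the other T-cell markers only in part. Cd3e was at 8.42 to 8.96 on Control arrays and at 9.33, 8.99, 8.03 and 8.89 on Sca1-HGAL replicates 1 to 4. Cd5, Zbtb32 and Bhlhe41 had the same order of Sca1-HGAL arrays, so it was not particular to Cd5. On replicate 1, 9 of the 14 T-cell genes exceeded every Control array, and on replicate 3 none did. Between the groups the T-cell list had a median log2 fold of 0.01 and 0 genes at an unadjusted p under 0.05. Regulatory T-cell markers, which bear on Ctla4, summed to 976 to 1168 on Control and 987 to 1167 on Sca1-HGAL arrays, and Foxp3 was at 7.16 and 7.15. Cd2, the T-cell marker highest in Control arrays and also a B-cell gene, had a log2 fold of -0.11, and Tnfrsf18, highest of the regulatory T-cell list, -0.13. Cd3g, chosen after its values were seen, was at 7.87 to 8.57 on Control arrays and at 9.89, 9.34, 6.85 and 8.43 on Sca1-HGAL replicates 1 to 4. The part of T cells in the values of replicate 1 was not tested.

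Neutrophil markers summed to 893 to 1485 on Control arrays and 1014 to 2844 on Sca1-HGAL arrays, again highest on replicate 1 and lowest on replicate 3. All 10 genes had a positive fold (median log2 fold 0.38), as did 56.4% of all genes tested. At an unadjusted limma p under 0.05, 5 of the 10 were higher, against 5.53% of all probe sets. NK-cell markers ranged from 884 to 1266 and from 603 to 1301, and plasma cell markers from 6439 to 7208 and from 5039 to 7251. Macrophage and monocyte markers summed to 2137 to 2985 and 2085 to 3192, and plasmacytoid dendritic cell markers to 880 to 1267 and 780 to 869. The marker highest in Control arrays had a log2 fold of 0.06 for neutrophils (Fcnb), -0.08 for NK cells (Nkg7), 0.09 for macrophages (Cd68), -0.19 for plasma cells (Irf4) and -0.18 for plasmacytoid dendritic cells (Pacsin1). The fold of Irf4 was -0.34 without the 2 arrays with high Xist, -0.38 without Sca1-HGAL replicate 3 and -0.11 without Control replicate 1. Other members of these lists, named after their values were seen, had larger folds, none past the adjusted threshold. Adgre1, the macrophage protein F4/80, had 1.01 with no overlap between groups, while 6 of its list of 10 had negative folds. Gzma, a granzyme of NK cells, had -0.77. Slamf7 (-0.64, no overlap) and Txndc5 (0.45) went opposite ways in the plasma cell list. Ccr9 (-0.83) and Siglech (-0.68), 2 of the 4 plasmacytoid dendritic cell markers, were lower on every Sca1-HGAL array. The B-cell identity sum was 70945 to 73072 on Control and 68561 to 70436 on Sca1-HGAL arrays, with no overlap. Of its 9 genes, 7 had a negative log2 fold and 0 had an unadjusted p under 0.05. The part of these cells in the results was not tested.

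Markers of other B-cell subsets also differed by array. Age-associated B-cell markers, 1 of which (Fcrl5) is also in the B-1 list, summed to 1871 to 2687 on Control arrays and to 4135, 4151, 2081 and 2981 on Sca1-HGAL replicates 1 to 4. All 5 of these genes had a positive log2 fold. At an unadjusted limma p under 0.05, 3 were higher, against 5.53% of all probe sets, and 3 had groups that did not overlap, against 3.15%. Sca1-HGAL replicates 1 to 4 exceeded every Control array for 5, 5, 3 and 4 of the 5 genes. Tbx21, which encodes T-bet, had a log2 fold of 0.99 (adjusted p = 0.111 by limma, SE 0.16). Marginal zone markers had a median log2 fold of -0.55 over 8 genes and follicular markers -0.35 over 5. At an unadjusted limma p under 0.05, 6 of the 8 and 3 of the 5 were lower, against 4.06% of all probe sets. On every Sca1-HGAL array 5 of the 8 and 1 of the 5 were below all Control arrays, against 2.30%. None passed the adjusted threshold. Cr2, a complement receptor and the highest marginal zone marker, had -0.28, and Fcrl5 had 0.57. Without Sca1-HGAL replicate 1 these folds were -0.18 and 0.36, and without replicate 3 that of Fcrl5 was 0.87. Fcer2a, the follicular marker CD23 that B-1 cells lack, was at 12.59 to 12.83 on Control and 12.09 to 12.54 on Sca1-HGAL arrays, a log2 fold of -0.42 (adjusted p = 0.225 by limma, SE 0.10), and replicate 3 was the highest Sca1-HGAL array.

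**Figure D4:**
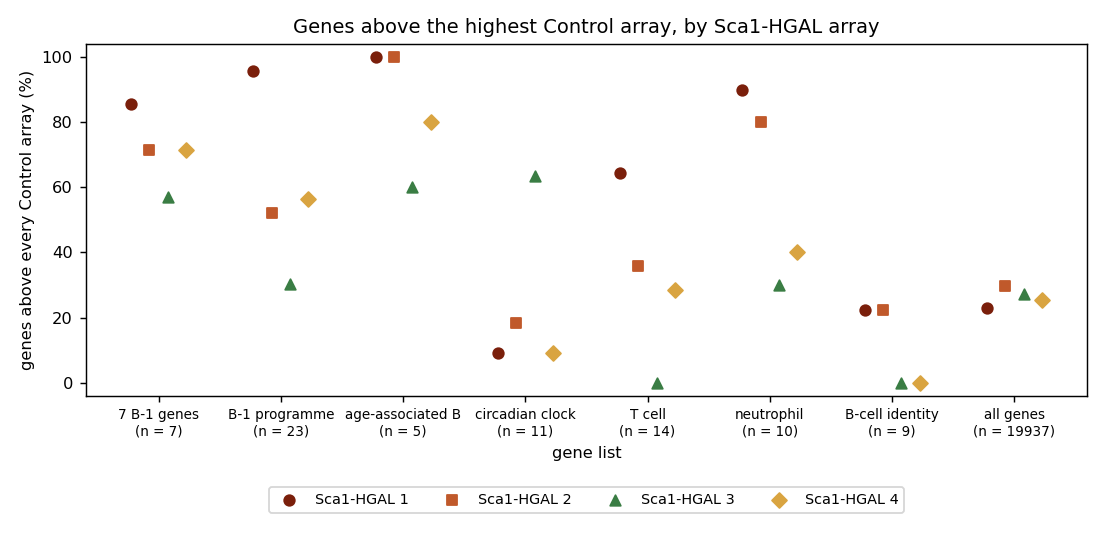
Share of the genes in a list that were above every Control array, for each Sca1-HGAL array (symbols); n is the number of genes analysed in the list. Replicate 1 reaches 95.7% of the B-1 programme and 64.3% of the T-cell list, replicate 3 reaches 30.4% and 0%, and over all genes the 4 arrays lie between 22.9% and 29.7%. The age-associated B-cell list is at 100%, 100%, 60% and 80% on replicates 1 to 4, above the B-1 programme on each. The neutrophil list is at 90%, 80%, 30% and 40%.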

How the data were processed

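Spleen B cells were profiled on 8 Affymetrix arrays, 4 Control and 4 Sca1-HGAL, grouped by their titles. The authors made the deposited intensity values with RMA, per the submitters' processing notes. That method subtracts background, forces one distribution on the arrays and condenses each probe set to 1 value. The sources used here do not name its version or annotation. Values were linear (4.94 to 24302), and log2 was taken with no pseudocount and no filter. RMA can hide a shift shared by all genes and shrinks folds of dim probe sets. There were 34760 probe sets. Those with a single symbol (21640) entered the test, while 1321 named several genes and 11799 were unnamed here. Testing used limma 3.58.1 under R 4.3.3 (2 groups, no covariate, two-sided, Benjamini-Hochberg over all), after a check on simulated data. A gene took its probe set with the highest mean. Exact permutation tests used all 70 assignments of the arrays. Lists of 90 pathway and 91 marker genes had 80 and 86 analysed. Named genes were the 7, the 3 with the smallest p per pathway list, the marker highest in Control arrays per list, fixed B-cell, T-cell and B-1 genes, and the 3 nearest patterns of members with an SD of at least 0.5. The members and lists were chosen with earlier results of these data known. Alternatives covered normalisation, centring, log offset, a dim-probe filter, all rows, array weights, a replicate block, the variance prior, arrays with high Xist and leaving out each array. Same-numbered arrays did not deviate together (r from -0.160 to 0.053).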

Additional observations from a re-analysis of the deposited data

Results flagged for a closer look

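Of 146 sets of 4 replicate values checked for an isolated highest or lowest array, 9 had one, where chance gives about 7.3 for independent sets. The sets share arrays and some genes were picked by their values, such as Il10, or as nearest to Ctla4, such as Adm. The 9 and the 7.3 therefore cannot be compared as a test. Sca1-HGAL replicate 1 was highest for Ctla4 (9.83, next 7.38), for Adm (9.91, next 6.95) and for Il10 (8.08, next 5.80) in log2 level. Sca1-HGAL replicate 3 was lowest for Cd34 (6.17, next 6.33) and for Pacsin1, a plasmacytoid dendritic cell marker (8.12, next 8.27). Sca1-HGAL replicate 2 was highest for Cd22 (12.89, next 12.64). Control replicate 3 was highest for Lin28b (5.80, next 5.44), and Control replicate 1 lowest for Itgb1 (8.49, next 8.90). Control replicate 2, an array with high Xist, had the highest summed intensity of macrophage and monocyte markers (2985, next 2276).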

How the results depend on the processing

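No member passed the adjusted threshold in any of the 17 alternatives (adjusted p from 0.0592 to 1 over the 7 genes), and Spn, Zbtb32, Bhlhe41, Nt5e and Ctla4 kept a positive log2 fold in all of them. The lowest was that of Nt5e with the replicate number as a block, where 6 probe sets passed over all genes against 1 without it. Called probe sets numbered 12 with array weights and 2 without the arrays with high Xist, and 1 to 40 when each array was left out, the 40 without Sca1-HGAL replicate 3. Members at an unadjusted p under 0.05 numbered 2 without the arrays with high Xist (4.93% of all probe sets on the higher side). Members above every Control array numbered 2 after median centring (2.46% of all probe sets), and 3 to 5 when each array was left out, which cannot lower that count; the 5 came without Sca1-HGAL replicate 3 (6.23%). Some log2 folds changed sign, including that of Il10 (0.58), which did so without Sca1-HGAL replicate 1. With array weights Cd5 had -0.001, Bhlhe40 0.08, Arid3a -0.002, Ptprc 0.005 and Il5ra -0.12. After a second quantile normalisation Bhlhe40 had 0.005, Lin28b -0.023, Cd79b 0.016 and Ptprc 0.001, and after median centring Lin28b had -0.009. Without the arrays with high Xist, Lin28b had -0.086, Cd86 -0.047 and Foxp3 0.051. Leaving out each array gave ranges of -0.13 to 0.23 for Cd5, -0.18 to 0.15 for Bhlhe40, -0.067 to 0.17 for Arid3a, -0.042 to 0.10 for Lin28b, -0.029 to 0.064 for Cd22, -0.25 to 0.16 for Cd28, -0.082 to 0.35 for Cd3e, -0.007 to 0.15 for Cd86, -0.056 to 0.006 for Foxp3, -0.026 to 0.82 for Il10, -0.35 to 0.43 for Il5ra, -0.44 to 0.17 for Prdm1, -0.43 to 0.41 for Nkg7, -0.19 to 0.28 for Cd68, -0.38 to 0.006 for Irf4 and -0.034 to 0.039 for Ptprc. The cause was not tested. Without Sca1-HGAL replicate 3, Zbtb20 (adjusted p = 0.0121), Fcgr2b (0.0416), Cd80 (0.00351) and Tbx21 (0.0265) passed limma. The mean over a gene's probe sets was the same value for each of the 7, which have 1 each. Values carry no detection calls, so how far a gene at a log2 level near 6 stands above background is unknown.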
